A study of Mus musculus with 4 samples.

Results

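The regions described are the promoters of long noncoding RNA genes in mouse bone mesenchymal stem cells (MSCs), as read from ATAC-seq. A region was taken when its peak lay on an autosome, within 1 kb of the annotated start of a lincRNA or antisense gene in GENCODE vM21, and more than 2 kb from every start of a protein-coding transcript. Of the 117282 peaks in the deposited table, 2144 met this rule. ATAC-seq cuts and tags open DNA with a transposase, so that the number of sequenced fragments over a site measures its accessibility. The study compared MSCs of old mice (18 to 22 months of age) with MSCs of young mice (3 to 5 months of age), with 2 samples per age. All 4 samples were grown only at 2% O2, in αMEM with serum and antibiotics. The labels name neither strain nor sex, and do not say whether the samples of an age came from separate animals, so the p-values measure only the spread between these samples, which may be technical.

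Long noncoding RNAs are transcripts with no long open reading frame. LincRNA genes are typed as lying between protein-coding genes, and antisense genes as overlapping a coding gene on the other strand. Peaks at starts of either type can still lie over or outside coding genes. Some of these RNAs act in the nucleus as scaffolds or at imprinted loci, some are hosts from which microRNAs or small nucleolar RNAs are processed, and for others it is the act of transcription or the DNA element at the promoter that has been linked to a neighbouring gene. Many such promoters also resemble enhancers, with few CpG dinucleotides and expression limited to particular cell types. ATAC-seq has no strand, and an open promoter does not show that the RNA was made.

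Before the 2 kb limit, 3526 autosomal peaks lay within 1 kb of a lincRNA or antisense gene start, and 1382 of them were left out because a coding start was too close. The 2144 remaining peaks belonged to 2154 genes, of which 1533 were lincRNA genes and 621 antisense genes. GENCODE vM21 has 8122 autosomal genes of both types, so 26.5% of them had such a peak, and 43.6% had any peak within 1 kb. The start itself was inside the peak at 1424 regions and beside it at 720. At 54 genes there were at least 2 such peaks, and 67 peaks served at least 2 genes. For 2017 of the 2144 peaks the nearest gene is a model with no name beyond a clone or serial symbol. Relative to coding genes, 1537 peaks lay outside them, 354 in an intron without touching an exon, and 253 over an exon. At the edges of the rule, the peak at chr19:12517701-12518800 was exactly 1000 bp from the start of Gm47243 and was taken. Its RLE-scaled values, which are deposited values divided by 1 factor per sample, were 31.4 and 21.0 in old and 25.9 and 30.0 in young MSCs, where here and later replicate 1 of an age stands before replicate 2. The peak at chr9:122396901-122397800 was 1001 bp from the start of A730085K08Rik and was not taken, with 9.47 and 13.4 in old and 8.96 and 9.50 in young MSCs. At the other limit, the peak at chr1:139379101-139379700, at the start of 4933436E23Rik, was 2001 bp from the coding start of Crb1 and had 5.16 and 7.62 in old and 8.29 and 6.83 in young MSCs. The peak at chr15:77076001-77084200, near the start of 1700109K24Rik, was left out at 1955 bp from a coding start of Rbfox2 and had 155 and 250.4 in old and 179 and 184 in young MSCs. In none of these 4 peaks were both old samples on the same side of both young samples.

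Each deposited value is a count over the library total, not divided by the width of the peak. Whole multiples of 1 step made up 100% of the values in every sample, within 0.01 of a step. On a scale of 10000000 per library the steps gave totals of 28600303 and 32559794 counts for the old samples and of 28259470 and 29413803 for the young samples, so depth was similar. At 3 counts a value was 1.05, 0.921, 1.06 and 1.02, respectively. That the counts equal numbers of fragments was not tested. Of the lncRNA promoter peaks, 27, 20, 13 and 10 were at or under 3 counts in the same order. No filter on low values was applied, so all 2144 were tested. In bulk samples, a smaller share of cells with an open site and a less open site in each cell cannot be told apart.

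The labelled cell type was checked at the coding promoters of marker genes. All 12 mesenchymal markers had a peak within 1 kb of a coding start, among them Pdgfra and Pdgfrb, which encode receptors for platelet-derived growth factor, and Ly6a, which encodes Sca-1. Their summed deposited values were 2150.0, 3408, 2865 and 3050.3 in old replicates 1 and 2 and young replicates 1 and 2, the largest part being a 32000 bp peak at Col1a1, a collagen gene, while Twist1 was the densest (53.3 per kb, against 27.4 at Col1a1). Of 9 blood and macrophage markers, 4 had such a peak, with sums of 351, 626, 615 and 585. Most of that came from an 11900 bp peak at Cd68 (35.6 per kb), and Csf1r, Lyz2 and Spi1 had peaks of 21.6, 17.3 and 15.1 per kb, while Ptprc, Itgam, Adgre1 and Cd3e had none. Of 6 erythroid markers 4 had a peak (sums 129.7, 176, 209.8 and 166), but neither globin gene did. Of 5 endothelial markers 3 had a peak (sums 62.2, 78.9, 93.8 and 97.6), and Cdh5 and Emcn had none. Of 3 epithelial markers 2 had a peak (sums 52.8, 62.7, 47.4 and 54.1), and Cdh1 had none. The sums grow with the number and width of the peaks. Per kb, the median over the genes with a peak was 20.6 for mesenchymal, 19.4 for blood and macrophage, 23.0 for erythroid, 18.0 for endothelial and 10.0 for epithelial markers, so the lists differ in how many genes have a peak and, apart from the epithelial one, little in density. A gene without a peak in the common list has no value, which is not a value of 0.

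To place these regions, their width and level were compared with those of the 15725 autosomal peaks within 1 kb of a coding transcript start. The median lncRNA promoter peak was 1600 bp wide (lower and upper quartile 1000 and 2800 bp, range 100 to 85900 bp), against 2600 bp at coding promoters and 1000 bp at the 96876 other autosomal peaks. The median deposited value of the lncRNA promoter peaks was 20.8 and 26.1 in old and 26.9 and 29.1 in young MSCs. Per kb of peak, the medians were 12.4 and 15.7 in old and 16.3 and 17.4 in young MSCs. Coding promoter peaks had medians per kb of 20.6 and 28.8 in old and 29.3 and 30.3 in young MSCs, and the other autosomal peaks of 10.5 and 12.9 in old and 13.6 and 14.9 in young MSCs. In every sample the lncRNA promoters thus lay between both other classes, nearer to the other autosomal peaks. The ratio of the lncRNA to the coding median per kb was 0.601 and 0.545 in old replicates 1 and 2 and 0.557 and 0.574 in young replicates 1 and 2. Within CpG-rich starts alone it was 0.836 to 0.898 over the 4 samples, and within CpG-poor starts alone 0.830 to 0.856. Within either CpG class the gap was thus smaller than over all starts. These levels describe the 4 samples and carry no test. The lncRNA promoter peaks held 2.95% and 2.97% of the summed autosomal peak values in old replicates 1 and 2, and 2.90% and 2.87% in young replicates 1 and 2.

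A start was called CpG-rich when the 1 kb around it had at least 50% G and C and at least 0.6 of the CpG dinucleotides that its base composition predicts. At lncRNA promoter peaks 115 of 2144 nearest starts were CpG-rich (5.36%), against 57.0% of coding promoter peaks. At the 4579 autosomal lincRNA and antisense starts with no peak within 1 kb the share was 1.35%. The median GC content around the start was 48.1% for lncRNA promoter peaks, 58.1% for coding promoter peaks and 45.6% for starts without a peak. The median ratio of observed to predicted CpG was 0.254, 0.666 and 0.208 in the same order. The first base of the gene was repeat-masked at 13.0% of lncRNA promoter peaks, at 7.23% of coding promoter peaks and at 23.9% of the starts without a peak. Taken over all 2144 peaks, lncRNA starts thus stood between coding promoters and lncRNA starts without a peak in base composition and repeats. Where the start lay inside the peak, 7.65% of starts were CpG-rich and 9.62% were in a repeat. Where it lay beside the peak, the shares were 0.833% and 19.7%, and the CpG-rich share was then under that of starts without a peak.

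Short motifs were searched on both strands from 250 bases before the start through the first 50 bases of the gene, a window of 300 bases. They were TATAAA as the TATA box, CCAAT as the CCAAT box, GGGCGG as the GC box, TGANTCA as the AP-1 site, CACGTG as an E-box, TGTGGT for Runx proteins and GGAATG for TEAD proteins. No motif contains another. The GC box was found at 13.8% of lncRNA promoter peaks, 56.1% of coding promoter peaks and 6.66% of lncRNA starts without a peak. For the TATA box the shares were 13.9%, 7.48% and 17.2%, and for the CCAAT box 35.0%, 34.4% and 37.8%. The TATA box was thus more frequent at lncRNA than at coding starts, and the CCAAT box about as frequent. The AP-1 motif occurred at 13.0% of lncRNA promoter peaks, at 5.97% of coding promoter peaks and at 9.30% of lncRNA starts without a peak. The TEAD motif occurred at 20.1%, 12.1% and 16.3%, the Runx motif at 22.1%, 13.1% and 22.3%, and the E-box at 7.18%, 8.58% and 4.70%. At coding starts that were CpG-poor, the shares were nearer to those of lncRNA promoter peaks, with 10.9% for the TATA box, 30.3% for the GC box, 9.31% for AP-1, 18.1% for Runx and 16.0% for TEAD. A match is a run of letters and no measure of binding.

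The comparison of ages asked first whether lncRNA promoters as a class were less open in old MSCs. On the values as deposited, the median log2 fold change (old minus young, on log2 of the value plus 1, which understates changes of weak peaks) over the 2144 peaks was -0.25, and 74.8% of them were lower in old MSCs. The sample medians were 23.5 ± 3.75 in old and 28.0 ± 1.54 in young MSCs (SD, n = 2 each) without overlap, for which a two-sided exact permutation gives p = 0.33, and no comparison of 2 with 2 samples can give less. For old replicate 1 the medians against young replicates 1 and 2 were -0.37 and -0.45, while for old replicate 2 they were -0.047 and -0.13. Without old replicate 1 the median was -0.079, and without old replicate 2 it was -0.41. Over all 117282 peaks the median was -0.27, so the lncRNA promoters followed the offset of the whole table. The values of all peaks added up to 43.8% and 50.3% of the library scale in old replicates 1 and 2 and to 57.5% and 62.9% in young replicates 1 and 2. A lower share of each old library in peaks cannot be told apart from less open chromatin in these values. These sums include peaks outside the autosomes, whose part differed between samples. The lncRNA promoter peaks held 2.45%, 2.73%, 2.47% and 2.42% of them, in the same order, but 2.95%, 2.97%, 2.90% and 2.87% of the autosomal sums. RLE scaling, which sets the typical peak to no change, divides the old samples by 0.813 and 1.01 and the young samples by 1.07 and 1.15. After it, the medians were 0.029 over lncRNA promoter peaks and 0.0011 over all peaks. The lower and upper quartiles of lncRNA promoter peaks were then -0.20 and 0.28.

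Set against coding promoters, lncRNA promoters differed between the ages by less than the spread between samples. Within each sample, the median log2 level of the lncRNA promoter peaks minus that of the coding promoter peaks was -1.55, -1.70, -1.71 and -1.64 in old replicates 1 and 2 and young replicates 1 and 2. The old samples averaged -1.62 ± 0.10 and the young samples -1.67 ± 0.052 (SD, n = 2 each). The difference of 0.048 had a two-sided exact permutation p of 0.667, and its sign turned to -0.025 without old replicate 1. Among the lncRNA promoters themselves, the 115 CpG-rich starts had median deposited values of 59.8 and 80.2 in old and 83.2 and 89.8 in young MSCs, and the 2029 CpG-poor starts of 19.9 and 24.6 in old and 25.5 and 27.5 in young MSCs. CpG-rich lncRNA promoters were thus the more open in all 4 samples. Their log2 median exceeded that of CpG-poor ones by 1.54, 1.67, 1.67 and 1.67 in old replicates 1 and 2 and young replicates 1 and 2. Part of this gap lies in width, with a median of 2500 bp at CpG-rich and 1600 bp at CpG-poor starts, and per kb the medians were 22.9 and 30.4 in old and 33.8 and 35.1 in young MSCs at CpG-rich and 12.2 and 15.4 in old and 15.9 and 16.8 in young MSCs at CpG-poor starts. For the log2 medians per peak, old minus young was -0.066 (two-sided exact permutation p = 0.333). It was -0.00237 without old replicate 1, and -0.24 under a stricter CpG rule. At coding promoters the log2 medians of CpG-rich and CpG-poor starts differed by 1.28, 1.38, 1.45 and 1.45 in the same order of samples, with both old samples lower. Whether lncRNA and coding promoters differ in this was not tested.

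By gene type, the 1510 peaks nearest to a lincRNA gene had a median RLE-scaled log2 fold change of 0.015 and the 634 nearest to an antisense gene one of 0.062. Within samples, the antisense median log2 level minus the lincRNA median was -0.069, -0.083, -0.092 and -0.20 in old replicates 1 and 2 and young replicates 1 and 2. Antisense promoters were lower than lincRNA promoters in every sample, least so in the old ones (two-sided exact permutation p = 0.333). By place, the median RLE-scaled log2 fold change was 0.088 over exons of coding genes, 0.047 in their introns and 0.018 outside coding genes. The 536 peaks nearest to a coding start (2001 to 14885 bp) had a median of 0.10, and 3 further groups of 536 at rising distance had 0.031, 0.00276 and 0.00294. Peaks whose gene start lay in a repeat (279 of 2144) had a median of 0.04, against 0.027 for the others. The change at a lncRNA promoter peak went only loosely with that at the nearest coding promoter peak. Across 283 lncRNA promoter peaks within 10 kb of one, Pearson's r of the RLE-scaled log2 fold changes was 0.304, across the 1528 within 100 kb it was 0.144, and across the 616 farther than 100 kb it was 0.150. All of these values come from the same 4 libraries, and peaks are not independent replicates.

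For single peaks, limma on RLE-scaled values, with p adjusted by the Benjamini-Hochberg method over all 117282 peaks, called 2 of the 2144 lncRNA promoters (0.0933%) at an adjusted p under 0.01, beside 0.0563% of all peaks. Of these, 1 fell in old MSCs and 1 rose. At an adjusted p under 0.05 there were 17 (12 lower and 5 higher in old MSCs), or 0.793%, against 1.12% of all peaks. At an unadjusted p under 0.05 there were 323 (149 lower and 174 higher), or 15.1%, against 16.4% of all peaks. After RLE scaling both old values were under both young values at 462 lncRNA promoters (21.5%, against 24.2% of all peaks), and above them at 553 (25.8%, against 23.2%). On the values as deposited these counts were 945 (44.1%, against 43.5% of all peaks) and 163 (7.60%, against 7.56%). Peaks without overlap as deposited thus leaned to lower values in both sets. After RLE scaling, all peaks at the unadjusted level split into 10403 lower and 8790 higher. On that scale the lncRNA promoters leaned to higher and all peaks to lower values in old MSCs. CpG-poor coding promoters, at 394 lower and 529 higher, leaned to higher values as well, with a median RLE-scaled log2 fold change of 0.033, against 0.034 at CpG-poor lncRNA promoters, so the lean was not particular to lncRNA promoters. The leans themselves were not tested. On the values as deposited the test called 19 lncRNA promoters, 18 of them lower in old MSCs, beside 1.18% of all peaks. The count of 2 rested on both young samples and on the settings, since limma gave 0 in 5 alternatives. These were without young replicate 1, without young replicate 2, with a pseudocount of 0.1, with a filter on low values and with plain variance moderation. Of all peaks, the same fits called 0.00682%, 0%, 0.0205%, 0.0171% and 0% at an adjusted p under 0.01, in that order. Quantile normalization called 4 lncRNA promoters and a pseudocount of 5 also 4, against 0.081% and 0.0784% of all peaks, a fit with a replicate block called 19 (0.886%, against 1.08%), and limma-voom on recovered counts called 5 (0.233%, against 0.123% of all peaks). Without old replicate 1 it was 206 (9.61%, against 8.83% of all peaks), and without old replicate 2 it was 34 (1.59%, against 1.43%), so the counts moved with those of all peaks.

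The lncRNA promoter that fell was that of the lincRNA gene Gm36017 (ENSMUSG00000104800.1), a peak of 600 bp at chr5:44427101-44427700 in GRCm38. Its RLE-scaled values were 17.6 and 12.5 in old and 45.8 and 57.0 in young MSCs. Both old samples lay well under both young samples, at 15.1 ± 3.63 and 51.4 ± 7.92 (SD, n = 2 each). The log2 fold change was -1.71 with an SE of 0.25 (limma, adjusted p = 0.00637). The peak lies outside coding genes, 200479 bp from the nearest coding start, that of Tapt1, and it covers the start of the gene. The promoter that rose was that of the lincRNA gene Gm43348 (ENSMUSG00000105034.1), a peak of 1200 bp at chr3:82811601-82812800. Its RLE-scaled values were 24.1 and 24.1 in old and 6.63 and 5.05 in young MSCs. The groups did not overlap, at 24.1 ± 0.00376 in old and 5.84 ± 1.12 in young MSCs (SD, n = 2 each). The log2 fold change was 1.89 with an SE of 0.29 (limma, adjusted p = 0.00891), with 20 and 17 counts in the young samples. This peak also lies outside coding genes, 53847 bp from the nearest coding start, that of Rbm46. Neither peak had a match of 200 bp at 95% identity elsewhere on the assembled chromosomes outside repeats. Both genes are unnamed models without a known function. Both missed the threshold with a pseudocount of 0.1, without young replicate 1 and without young replicate 2, with log2 fold changes of -1.77, -1.87 and -1.56 at Gm36017 and of 2.04, 2.05 and 1.71 at Gm43348. Neither was called with the filter on low values or with plain variance moderation.

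Next to these, the rule for named peaks took the lncRNA promoters with the largest log2 fold changes that missed the adjusted threshold but had an unadjusted p under 0.05, a mean deposited value of at least 5 and the same direction in all 4 pairs of samples, so their separation follows from the choice. The largest estimate among these was at 2410018L13Rik, a lincRNA gene, at chr12:23009701-23010700. Its RLE-scaled values were 5.16 and 1.52 in old and 24.5 and 17.2 in young MSCs, with a log2 fold change of -2.45 with an SE of 0.39 (limma, adjusted p = 0.0104). The old samples held 12 and 5 counts and the young samples 74 and 58. This start is CpG-rich, but 100% of the peak matches other places on chromosome 12 at 95% identity or more, in 7 matches of at least 200 bp. Reads of these copies may be mixed, and whether mapping separated them was not tested. At Gm34672 (chr13:59253501-59254500, lincRNA, start 911 bp from the peak) the values were 9.47 and 15.2 in old and 39.1 and 40.4 in young MSCs. Its log2 fold change was -1.64 with an SE of 0.27 (limma, adjusted p = 0.0108). Both 2410018L13Rik and Gm34672 passed an adjusted p of 0.01 (limma) with quantile normalization, with a pseudocount of 5 and on the values as deposited. With a pseudocount of 0.1, a filter on low values or plain variance moderation they did not. Both also missed it without young replicate 1 and without young replicate 2. The log2 fold changes were then -2.20 and -2.68 at 2410018L13Rik, and -1.67 and -1.62 at Gm34672. At Gm13936 (chr2:110196701-110197300, antisense) the RLE-scaled values were 2.15 and 4.27 in old and 9.95 and 14.8 in young MSCs. Its log2 fold change was -1.69 with an SE of 0.38 (limma, adjusted p = 0.0383). At Gm26531 (chr12:85980001-85980500, antisense, in an intron of Ttll5) they were 2.58 and 3.35 in old and 14.3 and 7.42 in young MSCs, with a log2 fold change of -1.52 with an SE of 0.39 (limma, adjusted p = 0.0595). In the last pair of genes the old values rest on 5 to 14 and 6 to 11 counts.

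In the other direction, the lincRNA gene Gm32647 at chr7:94042401-94043100, 962536 bp from any coding start, had RLE-scaled values of 9.47 and 10.4 in old and 1.99 and 2.08 in young MSCs. Its log2 fold change was 1.85 with an SE of 0.38 (limma, adjusted p = 0.0274), on 6 and 7 counts in the young samples. Pitpnm2os2, antisense to Pitpnm2 and in one of its introns (chr5:124194301-124195300), had 11.6 and 12.5 in old and 2.99 and 4.16 in young MSCs, with a log2 fold change of 1.53 with an SE of 0.35 (limma, adjusted p = 0.0410). Pitpnm2 encodes a phosphatidylinositol transfer protein, and its nearest coding start is 4554 bp away. Gm7580, antisense in an intron of the anion transporter gene Slco3a1 (chr7:74392901-74394100), had 11.6 and 15.2 in old and 2.65 and 5.94 in young MSCs, with a log2 fold change of 1.51 with an SE of 0.37 (limma, adjusted p = 0.0526). Gm28856, a lincRNA gene 33302 bp from the start of Fcamr (chr1:130766701-130767600), had 15.9 and 17.1 in old and 5.31 and 5.64 in young MSCs, with a log2 fold change of 1.43 with an SE of 0.31 (limma, adjusted p = 0.0326). All 4 peaks were weak in the young samples, with values under 6. None of the 8 starts named for these lesser estimates, other than 2410018L13Rik, is CpG-rich.

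Promoter sequences are shown for 2410018L13Rik, Gm43348 and Gm32647, which are among the largest log2 fold changes under this rule, so that their base composition can be seen beside their values. Each runs 5′ to 3′ along the gene from 250 bases before the start to 49 after it, with the start as the first of the last 50 bases, in GRCm38, and CpG dinucleotides are in capitals. They are too few to set promoters lower in old MSCs against those higher. The start of 2410018L13Rik (chr12:23010235-23010534, minus strand) holds 29 CpG dinucleotides in 300 bases at 71.3% GC, with matches to the CCAAT box, the GC box and the Runx motif. The starts of Gm43348 (chr3:82812185-82812484, minus strand) and Gm32647 (chr7:94042441-94042740, plus strand) hold 3 and 7 at 42.0% and 50.3% GC, and none of the 7 motifs.
2410018L13Rik: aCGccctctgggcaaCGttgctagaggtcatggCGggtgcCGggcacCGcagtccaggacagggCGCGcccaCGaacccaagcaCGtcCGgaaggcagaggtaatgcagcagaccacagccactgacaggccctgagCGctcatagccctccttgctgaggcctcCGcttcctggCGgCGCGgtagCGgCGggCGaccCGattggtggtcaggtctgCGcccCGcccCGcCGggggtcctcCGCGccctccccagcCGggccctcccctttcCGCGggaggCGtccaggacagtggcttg
Gm43348: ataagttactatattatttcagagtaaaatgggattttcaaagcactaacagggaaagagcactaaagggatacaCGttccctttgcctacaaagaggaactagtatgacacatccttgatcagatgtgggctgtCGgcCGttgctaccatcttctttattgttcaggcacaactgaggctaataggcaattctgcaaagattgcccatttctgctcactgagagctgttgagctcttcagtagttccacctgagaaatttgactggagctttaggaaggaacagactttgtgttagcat
Gm32647: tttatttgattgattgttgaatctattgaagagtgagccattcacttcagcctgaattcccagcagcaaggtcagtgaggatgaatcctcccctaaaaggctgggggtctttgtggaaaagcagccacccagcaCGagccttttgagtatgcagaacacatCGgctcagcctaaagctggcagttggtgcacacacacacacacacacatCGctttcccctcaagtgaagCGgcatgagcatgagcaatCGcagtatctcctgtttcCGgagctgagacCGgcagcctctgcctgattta

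The known long noncoding genes were read through fixed lists of 115 symbols in 7 groups, of which 89 are in GENCODE vM21 under that symbol. Of these, 28 genes had a lncRNA promoter peak by the rule, in 26 peaks. The remainder were of another gene type (31), had their peak within 2 kb of a coding start (17), had no peak within 1 kb (10) or were not autosomal (3). None of the 26 peaks passed an adjusted p of 0.01 and 1 had an unadjusted p under 0.05, with limma on RLE-scaled values, beside 0.0563% and 16.4% of all peaks. By sign alone, 11 log2 fold changes were below 0 and 15 above, with a median of 0.059, against 0.029 over all lncRNA promoter peaks. On the values as deposited their median was -0.23.

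Among genes of nuclear structure, Malat1, whose RNA lies in nuclear speckles, had a peak of 15400 bp at chr19:5790001-5805400. Its RLE-scaled values were 1208 and 1407 in old and 1494 and 1453 in young MSCs, with both old samples under both young samples and a log2 fold change of -0.18 with an SE of 0.10 (limma, adjusted p = 0.371). Neat1, whose RNA builds paraspeckles, lies beside it in a peak of 47700 bp at chr19:5805601-5853300 that also takes in the start of Frmd8os and an exon of Frmd8. Its values were 9075 and 6019 in old and 9121 and 9278 in young MSCs. Old replicate 2 was low there and the other 3 samples lay close together, and the log2 fold change was -0.32 with an SE of 0.19 (limma, adjusted p = 0.500). It was -0.00994 without old replicate 2 and -0.61 without old replicate 1. With a sample left out, Malat1 ranged from -0.28 to -0.069. The third peak, at chr17:39842701-39849100, takes in the starts of Gm26917, Gm42418 and AY036118 and was the densest of all lncRNA promoters, with a mean deposited value of 956 per kb. Its RLE-scaled values were 5685 and 10146 in old and 4975 and 3789.7 in young MSCs, so that old replicate 2 stood far above the other 3 samples. The log2 fold change was 0.81 with an SE of 0.43 (limma, adjusted p = 0.530), and 0.40 to 1.22 with a sample left out. RefSeq places Rn18s-rs5, a copy of 18S ribosomal RNA sequence, at chr17:39846354-39848202 inside this peak, and 21.7% of the peak matches other places at 95% identity or more. Reads from ribosomal DNA repeats and from these genes may be mixed, and whether mapping separated them was not tested.

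At imprinted loci, where the parental copies differ in activity, 6 genes had a lncRNA promoter peak and none passed. H19, whose RNA is made from the maternal copy and limits growth, had RLE-scaled values of 99.4 and 68.3 in old and 77.3 and 60.2 in young MSCs at chr7:142573801-142582400. Meg3, a maternally expressed RNA of the Dlk1 locus, had 273 and 229 in old and 279 and 271 in young MSCs in a peak of 20500 bp. In both, the ranges of old and young samples overlapped. Kcnq1ot1 and Airn, which silence neighbouring genes on the paternal copy, had 125 and 116 in old and 117 and 112 in young MSCs, and 231 and 211 in old and 219 and 194 in young MSCs. Mirg, a microRNA host of the same locus as Meg3, had 34.0 and 29.6 in old and 30.5 and 28.5 in young MSCs. Nespas, antisense at the Gnas locus and 2059 bp from a coding start, had 8.61 and 8.54 in old and 8.29 and 12.8 in young MSCs. All 6 overlapped between the ages, with RLE-scaled log2 fold changes of -0.24 to 0.27. The values do not separate the parental copies.

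Among host genes of microRNAs, 7 had a lncRNA promoter peak and none passed. Dnm3os, a host gene of microRNAs that mesenchymal cells express, had 336 and 337 in old and 379 and 409 in young MSCs in a peak of 13200 bp at chr1:162215201-162228400, in an intron of Dnm3. Both old values were under both young values, and the log2 fold change was -0.22 with an SE of 0.12 (limma, adjusted p = 0.376). Mir17hg, whose microRNAs promote proliferation, had 284 and 234 in old and 327 and 284 in young MSCs, with a log2 fold change of -0.24 with an SE of 0.14 (limma, adjusted p = 0.410), and -0.39 to -0.093 with a sample left out. Carmn, a microRNA host gene active in smooth muscle, shares a peak of 30900 bp with Bvht, at chr18:61636301-61667200. That peak had 1108 and 1517 in old and 1196 and 1142 in young MSCs, the highest value being that of old replicate 2. Mir155hg, an immune-cell host gene, had 58.5 and 42.4 in old and 52.7 and 53.4 in young MSCs with overlapping groups. The neuronal hosts Mir124a-1hg and Mir9-3hg were weak, with 8.18 and 7.62 in old and 4.31 and 7.12 in young MSCs, and 11.6 and 10.4 in old and 9.62 and 7.72 in young MSCs. In both peaks the old values were above the young values after RLE scaling, but the groups overlapped on the values as deposited. 4632428C04Rik had 109.7 and 127 in old and 131 and 118 in young MSCs and overlapping groups.

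Among host genes of small nucleolar RNAs, which guide the modification of ribosomal RNA, 4 of 18 symbols had a lncRNA promoter peak and none passed. Snhg6 had 116 and 121 in old and 106 and 124 in young MSCs, and Snhg12 had 59.0 and 71.4 in old and 71.7 and 58.8 in young MSCs. Epb41l4aos had 92.9 and 87.8 in old and 106 and 92.0 in young MSCs. Snhg20 had 17.2 and 33.8 in old and 21.9 and 22.3 in young MSCs, with old replicate 2 high and old replicate 1 low. In all 4 the ages overlapped, and the lowest adjusted p was 0.766 (limma). Of 12 transcripts of the Hox clusters, none had a lncRNA promoter peak by the rule. At Hottip, Hotairm1 and Hoxd3os1 the peak was within 2 kb of a coding start, at Hotair, Hoxaas3, Hoxb5os and Hoxb3os there was no peak within 1 kb, and the other 5 had another gene type or no entry under the symbol. Of 28 neighbours of developmental regulators, 2 had such a peak. These were Bvht, described with Carmn, and 2610035D17Rik, a lincRNA gene on chromosome 11, which had 77.0 and 97.6 in old and 77.6 and 79.8 in young MSCs.

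Among genes linked to growth, stress or p53, 7 had a lncRNA promoter peak and none passed the adjusted threshold. Lncpint, a p53-regulated lincRNA, had 404 and 463 in old and 372 and 340.1 in young MSCs in a peak of 18000 bp at chr6:31204201-31222200. Both old samples were above both young samples, and the log2 fold change was 0.28 with an SE of 0.13 (limma, adjusted p = 0.269), with an unadjusted p of 0.0362 from limma. On the values as deposited it was -0.00548. Pvt1, next to Myc, had 85.2 and 78.1 in old and 71.3 and 71.8 in young MSCs, and its old and young samples overlapped on the values as deposited. Trp53cor1 (lincRNA-p21), 11179 bp from a start of Cdkn1a, had 68.8 and 110.4 in old and 73.6 and 69.7 in young MSCs, so that only old replicate 2 was high. Ptgs2os2, near the prostaglandin synthase gene Ptgs2, had 117 and 99.1 in old and 122 and 126 in young MSCs. 2900097C17Rik had 12.9 and 14.3 in old and 13.9 and 13.1 in young MSCs, nearly the same in all samples. Neat1 and Kcnq1ot1, also in this group, are described with the other groups.

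The densest lncRNA promoters, by mean deposited value per kb, were the peak with ribosomal sequence, 4932412D23Rik (211 per kb), Neat1 (177), Gm6410 (163) and Gm26901 (147). 4932412D23Rik lies at chr16:42874001-42877200 over an exon of Zbtb20, a zinc finger repressor gene, and had RLE-scaled values of 619 and 631 in old and 707 and 701 in young MSCs. Both old samples were lower, and the log2 fold change was -0.17 with an SE of 0.10 (limma, adjusted p = 0.439). Gm6410 at chr8:4676401-4680100 had 579 and 488 in old and 642 and 666 in young MSCs, with a log2 fold change of -0.30 with an SE of 0.12 (limma, adjusted p = 0.203). Gm26901 at chr1:7397001-7399100 had 315 and 234 in old and 328 and 342 in young MSCs, with a log2 fold change of -0.30 with an SE of 0.15 (limma, adjusted p = 0.314). With a sample left out, Gm6410 ranged from -0.43 to -0.17 and Gm26901 from -0.52 to -0.076. None of these passed the adjusted threshold. The starts of 4932412D23Rik, Gm6410 and Gm26901 are CpG-rich. Of the 50 densest lncRNA promoters, 10 were CpG-rich, and 8 had a zinc finger gene of the Zfp series as nearest coding gene, against 54 of all 2144. That feature was chosen after the list was seen and has no test. The 300 bases at the densest start and at 4932412D23Rik are shown because they carry 19 and 26 CpG dinucleotides, in capitals, at chr17:39846708-39847007, plus strand, and chr16:42875713-42876012, minus strand. The first lies wholly inside Rn18s-rs5 (chr17:39846354-39848202), so the bases shown are a copy of 18S ribosomal RNA sequence. Its CpG dinucleotides and motif matches are those of that copy. The first holds matches to the CCAAT box, the Runx and the TEAD motif, and the second to the CCAAT box and the GC box.
Gm42418: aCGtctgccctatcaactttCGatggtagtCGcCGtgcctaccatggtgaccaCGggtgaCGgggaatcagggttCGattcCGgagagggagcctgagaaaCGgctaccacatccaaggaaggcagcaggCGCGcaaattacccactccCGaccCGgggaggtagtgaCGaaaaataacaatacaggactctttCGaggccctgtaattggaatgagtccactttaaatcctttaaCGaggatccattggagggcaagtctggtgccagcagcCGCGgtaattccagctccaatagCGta
4932412D23Rik: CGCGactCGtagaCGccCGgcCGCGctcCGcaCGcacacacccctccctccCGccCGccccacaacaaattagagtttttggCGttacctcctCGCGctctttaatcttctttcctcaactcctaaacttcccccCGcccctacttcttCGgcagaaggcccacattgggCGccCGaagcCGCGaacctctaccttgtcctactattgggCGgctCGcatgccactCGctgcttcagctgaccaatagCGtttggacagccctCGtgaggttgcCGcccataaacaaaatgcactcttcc

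The widest lncRNA promoter peaks were far longer than a promoter. The widest, 85900 bp at chr16:92605701-92691600, holds the start of Gm26626, antisense to Runx1, and ends 3895 bp from a coding start of that gene, which encodes a factor of blood and skeletal development. Its RLE-scaled values were 1406 and 1554 in old and 1714 and 1588 in young MSCs, with a log2 fold change of -0.16 with an SE of 0.09 (limma, adjusted p = 0.399). The second, 72400 bp at chr6:31045901-31118300, holds the starts of Gm27019 and Gm13833 and lies 86823 bp from the start of Klf14. It had 1758 and 2067 in old and 1640.4 and 1611 in young MSCs, with a log2 fold change of 0.23 with an SE of 0.09 (limma, adjusted p = 0.218), and -0.0594 on the values as deposited. The peak of Gm47767, 36100 bp at chr12:80201901-80238000 over exons of Actn1, the gene of a cytoskeletal actinin, had 509 and 625 in old and 498 and 475 in young MSCs, with a log2 fold change of 0.21 with an SE of 0.12 (limma, adjusted p = 0.401). Neat1 and Carmn with Bvht were the other two, and the log2 fold change of the latter was 0.15 with an SE of 0.12 (limma, adjusted p = 0.561). With a sample left out, the log2 fold changes ranged from -0.22 to -0.089 at Gm26626, 0.12 to 0.34 at Gm27019, 0.075 to 0.36 at Gm47767 and -0.066 to 0.37 at Carmn. In these domains the value is a sum over the whole peak and does not separate the lncRNA start from the remainder.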

How the data were processed

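The deposited table gives 117282 peaks on mm10 in 4 samples. The authors named its values RPKM; they were treated as a score per peak, because the deposited values were counts over the library total, not divided by width. The submitters' processing notes name Bowtie2, Picard and mm10, without versions. Replicates were grouped by age from the labels.

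Starts came from GENCODE vM21 and sequences from GRCm38; 628 of 628 promoter sequences of a RefSeq table were identical to the genome read here. Values were divided by RLE factors and tested as log2(value + 1) with limma 3.58.1 in R 4.3.3 (trend and robust moderation), over all peaks, with no filter; overall levels used the values as deposited. The limma step was tested on simulated data. A planned count test on recovered counts was not run; limma-voom on the same counts was added in its place after the data were examined, as were another set of coding starts, RLE scaling of the overall median and leaving out chromosome 11. Tables used Python 3.11.15, numpy 2.4.6 and pandas 2.3.3; copies were sought with BLAST 2.17.0, without seeding in soft-masked repeats.

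The members and lists were chosen with earlier results of these data known. Named peaks were all members of the fixed lists, the 5 largest log2 fold changes per direction past adjusted p 0.01, filled with unadjusted p under 0.05 at a mean value of at least 5 and 1 direction in all 4 pairs, the 5 densest, the 5 widest, and those at the limits. Alternatives tried were quantile normalization, no scaling, a pseudocount of 0.1 or 5, a filter, plain moderation, a replicate block, other thresholds, other membership rules and leaving out each sample. The 15 peaks outside the autosomes that met both distances were left out by the rule. A marker gene and a promoter sequence that these rules chose are not reported here.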

Additional observations from a re-analysis of the deposited data

How the results depend on the processing

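Where no reason is given for a change, the cause was not tested. Limma-voom on recovered counts, coding starts of all transcripts of coding genes, RLE scaling of the class median and leaving out chromosome 11 were added after the data were examined, and edgeR on recovered counts was not run. Against 2 called lncRNA promoters there were 19 on the values as deposited, 4 with quantile normalization and 4 with a pseudocount of 5. A pseudocount of 0.1 gave 0, as did the filter at the lower quartile of mean values (1807 tested). With neither trend nor robust moderation there were also 0. At an adjusted p under 0.05 there were 17, and limma-voom called 5. Leaving out each sample gave 0 to 206, with the lone sample of a group assumed to vary like the other group. Other distances, start sites and gene types gave 2 or 3.

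The fit with a replicate block called 19 (13 lower and 6 higher), or 0.886%, against 1.08% of all peaks. Across peaks, the deviations of old and young samples that share a number correlated at -0.0993. With 2 samples per age, this 1 value cannot decide whether samples of the same number were prepared together. The labels give only the number.

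The class median of -0.25 ranged from -0.41 to -0.0795 with a sample left out and was 0.0293 with RLE factors, a shift the scaling itself sets. The difference from coding promoters ranged from -0.0245 to 0.12 with a sample left out. The ratio of medians per kb, 0.545 for mean values, was 0.319 per peak, where width enters, and 0.538 to 0.554 with a sample left out. CpG-rich minus CpG-poor promoters ranged from -0.13 to -0.00237 with a sample left out and was -0.24 under the stricter CpG rule. Of 23 peaks with a printed fold change, 4 turned sign on the values as deposited, in the direction of the offset of all peaks, to -0.0594 at Gm27019, -0.00548 at Lncpint, -0.0755 at Gm47767 and -0.14 at Carmn. With a sample left out, Carmn alone of the 23 turned sign, with a range from -0.0662 to 0.37. At weak peaks depth limits the fold change, since 3 counts correspond to a value of about 1.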

Other observations

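Among 19 autosomes, chromosome 11 had the highest median RLE-scaled log2 fold change over its lncRNA promoter peaks, 111 in number, and was singled out after the values were seen. Their median log2 level minus that of the lncRNA promoters on the other autosomes was -0.22, 0.095, -0.28 and -0.26 in old replicates 1 and 2 and young replicates 1 and 2, so that only old replicate 2 was above 0. Their median RLE-scaled log2 fold change was 0.14, with 0.073 for old replicate 1 and 0.20 for old replicate 2 against the young samples. Chromosome 19 followed with 0.11 (0.078 and 0.19), and chromosome 17 had 0.079 (0.017 and 0.14). Snhg20 and 2610035D17Rik lie on chromosome 11, and both had their highest value in old replicate 2. Without chromosome 11 the median over the remaining lncRNA promoters, on the values as deposited, was -0.26. Its part in the values of these genes was not tested.

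The rule for named peaks left 9 of the 17 lncRNA promoters at an adjusted p under 0.05 (limma) unnamed. Lower in old MSCs by RLE-scaled values were Gm20597 with 181 and 148 in old and 252 and 274 in young, AC115789.4 with 38.7 and 21.7 in old and 70.7 and 82.8 in young, Gm33466 with 32.7 and 18.3 in old and 50.1 and 56.1 in young and AC133509.2 with 21.9 and 14.0 in old and 40.5 and 41.8 in young. Weaker ones, also lower, were Gm16035 with 19.8 and 11.9 in old and 42.8 and 38.9 in young, Gm14062 with 4.30 and 2.74 in old and 11.9 and 11.3 in young, Gm9801 with 0.861 and 0.610 in old and 10.9 and 5.05 in young and Gm33103 with 1.29 and 0.610 in old and 7.96 and 7.72 in young. The remaining one, Gm44127, was higher, with 29.7 and 54.3 in old and 15.9 and 15.7 in young MSCs, and its old samples lay far apart.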
